A study of Mus musculus with 32 samples.

Results

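The comparison described here sets photoreceptors of Per mutant mice collected late in the subjective day against photoreceptors of the same genotype collected in the subjective night. It holds 12 of the 32 libraries of the series, chosen by the labelled genotype and circadian time (CT, hours of the internal day counted from subjective dawn). The mutant, called KO in the labels, is Per1-/-Per2Brdm1, which lacks Per1 and carries the Brdm1 allele of Per2, known as a deletion within the PAS domain. There were 4 KO libraries at CT10 and 8 at night, 4 each at CT19 and CT22. The matching wild type (WT) libraries, 4 at CT10, 4 at CT19 and 4 at CT22, served as the reference for what a day-night change looks like with an intact clock. All animals were male, 6 weeks old and on a C57BL/6/J x 129 SvEvBrd background, and the photoreceptors were laser captured from snap-frozen eyes. The mutations are present in the whole animal, not in photoreceptors alone. The labels give an animal number for each library, and p-values below measure the spread between these libraries.

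In the circadian clock the activators CLOCK and BMAL1 (the product of Arntl) bind E-box sequences and switch on the Per and Cry genes. PER and CRY proteins then return to repress those activators, and the nuclear receptors of the REV-ERB and ROR families set the rhythm of Arntl through a second loop. D-box factors such as Dbp, Tef and Hlf carry the rhythm to output genes. Photoreceptors hold a clock of their own and also respond to dopamine, which is released by amacrine cells in a daily rhythm and lowers cAMP in rods and cones through the receptor encoded by Drd4.

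Total counts ranged from 25402578 to 34334225 in the 12 KO libraries and from 23833604 to 34582742 over the series. Levels are given as CPM, counts scaled to a common library size. Of 54232 genes in the table, 17871 passed the filter on low counts and were tested. Rod markers stood at a mean log2 CPM of 12.16 to 12.40 in the KO CT10 libraries and 12.04 to 12.44 in the KO night libraries, so the labelled cell type was present at a like level in both. Levels of other cell types are given with the results they accompany.

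The sequences below show the elements through which the clock and cAMP are known to act, before an annotated transcript start of genes whose values in the mutant are described next. Each is the 250 bases before the annotated start in RefSeq, build GRCm38.p6, written 5′ to 3′ on the gene's own strand. Capitals mark the E-box CACGTG in Ciart (chr3:95882229-95882478, minus strand), Per1 (chr11:69098699-69098948, plus strand) and Cry1 (chr10:85185055-85185304, minus strand). They mark the D-box TTATGTAA in Per3 (chr4:151044666-151044915, minus strand) and the cAMP response element half-site TGACG, read on either strand, in Nr4a1 (chr15:101266596-101266845, plus strand).
Ciart: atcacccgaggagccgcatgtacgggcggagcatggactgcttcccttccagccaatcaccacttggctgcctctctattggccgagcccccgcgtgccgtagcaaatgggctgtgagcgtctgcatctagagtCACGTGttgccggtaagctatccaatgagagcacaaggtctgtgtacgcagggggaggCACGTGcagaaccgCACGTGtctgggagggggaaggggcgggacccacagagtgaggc
Per1: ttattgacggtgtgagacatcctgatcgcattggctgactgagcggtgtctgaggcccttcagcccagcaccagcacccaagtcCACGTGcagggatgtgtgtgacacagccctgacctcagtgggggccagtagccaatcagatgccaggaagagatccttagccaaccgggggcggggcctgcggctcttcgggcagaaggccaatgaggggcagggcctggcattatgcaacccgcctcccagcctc
Cry1: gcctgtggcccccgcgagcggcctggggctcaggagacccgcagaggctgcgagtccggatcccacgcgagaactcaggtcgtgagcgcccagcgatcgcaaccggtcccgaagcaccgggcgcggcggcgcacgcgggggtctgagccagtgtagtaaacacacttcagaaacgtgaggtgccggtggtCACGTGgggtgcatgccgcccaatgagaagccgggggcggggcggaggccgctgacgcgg
Per3: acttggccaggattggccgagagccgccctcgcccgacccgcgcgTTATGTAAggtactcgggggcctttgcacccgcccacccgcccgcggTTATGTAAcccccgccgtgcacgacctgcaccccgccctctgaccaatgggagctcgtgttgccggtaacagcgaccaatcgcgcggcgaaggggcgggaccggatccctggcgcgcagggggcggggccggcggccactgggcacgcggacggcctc
Nr4a1: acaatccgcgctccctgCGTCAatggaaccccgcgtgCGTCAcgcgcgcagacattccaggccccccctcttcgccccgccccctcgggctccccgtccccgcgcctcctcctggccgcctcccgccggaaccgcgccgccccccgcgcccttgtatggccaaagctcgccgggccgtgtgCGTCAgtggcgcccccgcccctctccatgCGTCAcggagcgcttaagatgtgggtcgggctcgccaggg
Searched on both strands, the E-box was present in 6.02% of 32851 RefSeq promoter windows, the D-box in 0.819% and the half-site in 17.8%. Of the 25 core clock genes 20 had a window in that table, and 5 of them held an E-box, 2 a D-box and 7 a half-site. Ciart held 3 E-boxes and Nr4a1 4 half-sites within these windows. Per1 has 2 windows in the table, and the one that holds the E-box is shown, which lies within the span of the gene given below. A match describes the letters and does not show that a factor is bound.

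The targeted genes were read first. In the 4 KO libraries of CT10, Per1 (ENSMUSG00000020893), which lies on the plus strand of chromosome 11 from 69095217 to 69109960 in GRCm38, was at 203, 181, 174 and 195 CPM. In the 8 KO night libraries it ranged from 170 to 323 CPM with a median of 212. The night range enclosed all 4 CT10 values. Per2 (ENSMUSG00000055866, chromosome 1, 91415982 to 91459324, minus strand) stood at 207, 184, 207 and 210 CPM at CT10 and from 168 to 267 CPM at night, with a median of 186. Counts cover whole genes, exons outside the deleted parts included, so reads of both genes in KO do not go against the labels and do not check them either. In WT, Per2 was at 15.2 to 28.4 CPM at CT10 and 31.4 to 41.5 CPM at night, with no overlap between the groups.

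No gene was called different between CT10 and night in KO. A gene is called when edgeR's quasi-likelihood test gives an adjusted p (Benjamini-Hochberg over all tested genes) under 0.05, and the called share was 0% (0 of 17871 genes), with a smallest adjusted p of 0.067. At an unadjusted p under 0.05 there were 2027 genes (11.3%), 1260 higher and 767 lower at CT10. The same contrast in WT, fitted in the same model, called 4084 genes (22.9%), 2065 higher at CT10 (11.6%) and 2019 lower (11.3%). The WT count fell to 2528 with the mean level of inner retina markers (bipolar, amacrine and Müller glia) added to the fit, and to 518 with that of lens markers as well, below called both covariates. The median standard error of a log2 fold change was 0.16 in both genotypes, a value set by the spread that the fit shares between all libraries and by the same group sizes. Among 12196 genes with an average log2 CPM of at least 1, the 95% interval of the KO change lay within 1 log2 unit of 0 for 96.7%, and that of the WT change for 89.2%. The call depended on the tool: DESeq2's Wald test called 53 genes in KO (43 higher, 10 lower), 30 of them with provisional symbols.

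The night times gave different counts against CT10. KO CT10 against KO CT19 called 1 gene, Abca5 (0.0056% of those tested), with 2397 genes at an unadjusted p under 0.05. KO CT10 against KO CT22 called 0 genes by edgeR and 1 by DESeq2, with 903 at an unadjusted p under 0.05. KO CT22 against KO CT19 called 0 by edgeR and 2 by DESeq2, with 723 at that p. The first count is not firm: DESeq2 called 230 genes against CT19, and edgeR called 23 without KO CT19 replicate 2 and 0 without KO CT19 replicate 3, 4 or 5 or KO CT10 replicate 2 or 3. The comparisons against CT19 and CT22 share their CT10 libraries.

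Abca5, which encodes a transporter of lysosomal and endosomal membranes, had the smallest p in KO (ENSMUSG00000018800, chromosome 11, 110269369 to 110337716, minus strand). It stood at 69.3, 75.2, 64.4 and 65.7 CPM at CT10 against 41.3 to 60.4 CPM at night (median 52.8). Every KO CT10 library was above every KO night library. The log2 fold change was 0.43 (SE 0.08, edgeR adjusted p = 0.067), made of 0.57 (SE 0.09, adjusted p = 0.0151) against CT19 and 0.28 (SE 0.09, adjusted p = 0.959) against CT22. Without KO CT22 replicate 4 or KO CT19 replicate 2 the CT10-night contrast called 1 or 2 genes. Among the fits that left out 1 KO library, Abca5 was called only without KO CT19 replicate 2. In WT, Abca5 changed in the same direction by 0.31 (SE 0.08, adjusted p = 0.00516), from 59.3 ± 6.92 CPM at night (SD, n = 8) to 73.3 ± 3.59 at CT10 (SD, n = 4). The genotype difference was 0.12 (SE 0.11, adjusted p = 0.608). WT was not called for Abca5 with both covariates (edgeR adjusted p = 0.453).

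Scaper, whose human counterpart is a retinitis pigmentosa gene, lies on chromosome 9 (ENSMUSG00000034007, 55549879 to 55938119, minus strand). It was at 34.5, 51.7, 39.4 and 45.3 CPM in KO at CT10 and at 25.9 to 33.9 CPM at night (median 30.4), again without overlap. Its change was 0.51 in KO (SE 0.10, edgeR adjusted p = 0.0927) and 0.74 in WT (SE 0.10, adjusted p = 7.4e-06). The difference between the genotypes was −0.23 (SE 0.15, adjusted p = 0.392), and Scaper was still called in WT with both marker levels as covariates (adjusted p = 0.0433).

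Akap9, which encodes a protein that anchors protein kinase A at the centrosome and Golgi, stood at 242, 258, 227 and 215 CPM in KO at CT10. The KO night libraries ranged from 142 to 198 CPM with a median of 172, below all 4. Its log2 fold change was 0.48 in KO (SE 0.10, edgeR adjusted p = 0.0927) and 0.32 in WT (SE 0.10, adjusted p = 0.0196, or 0.515 with both covariates). Akap9 shares annotated exons with Cyp51 on the opposite strand, so its reads are less certain. Dync2h1, the heavy chain of the motor for retrograde transport in cilia, was at 93.9 to 128 CPM at CT10 in KO and 54.3 to 100 CPM at night, with a change of 0.53 in KO (SE 0.13, adjusted p = 0.13) and 0.47 in WT (SE 0.13, adjusted p = 0.00928).

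No gene was called in both genotypes in the same direction by edgeR. DESeq2 gave 8 such genes. Those higher at CT10 were Abca5, Scaper, Akap9 and Dync2h1, and those lower were Ppp2r5b, a regulatory subunit of protein phosphatase 2A, the lysosomal sialidase Neu1, the potassium channel subunit Kcnab3, and Fam50a. By edgeR the lower ones stood at −0.26 (SE 0.07) for Ppp2r5b, −0.19 (SE 0.05) for Neu1, −0.61 (SE 0.16) for Kcnab3 and −0.25 (SE 0.07) for Fam50a in KO. In WT they stood at −0.37 (SE 0.07), −0.28 (SE 0.05), −0.57 (SE 0.16) and −0.17 (SE 0.07), and all but Fam50a (edgeR adjusted p = 0.0674) were called there. Both covariates kept the WT call of Ppp2r5b (edgeR adjusted p = 0.0125) and not that of Neu1 (0.0901). Neu1 was at 50.6, 48.6, 49.8 and 49.1 CPM in the KO CT10 libraries and at 51.3 to 63.1 CPM at night, and Kcnab3 at 4.25, 4.70, 5.16 and 4.42 against 5.56 to 8.68 CPM. The KO groups did not overlap for Neu1 or Kcnab3, nor for Ppp2r5b (57.3 to 63.6 against 65.6 to 79.1 CPM).

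Ranking the genes called in WT by their KO p in the same direction placed these names with further ones, a ranking made after the values were seen. They included Vps13a, a lipid transfer protein gene (0.43 in KO, SE 0.11, and 0.59 in WT, SE 0.11), and the nuclear pore genes Ranbp2 (0.39 and 0.60, SE 0.10 each) and Tpr (0.32 and 0.40, SE 0.08 each). The adhesion gene Cadm2 stood at 0.44 in KO (SE 0.11) and 0.54 in WT (SE 0.11), and the splicing regulator Mbnl1 at 0.25 in both (SE 0.07). None of these was called in KO by edgeR as fitted here or by DESeq2, and Vps13a was called with a block by animal number (edgeR adjusted p = 0.0376). In WT, Vps13a was still called with both covariates (edgeR adjusted p = 0.029). Ranbp2 (0.064), Tpr (0.163), Cadm2 (0.179) and Mbnl1 (0.521) were not. Tpr shares exons with Odr4 on the opposite strand.

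**Figure D1:**
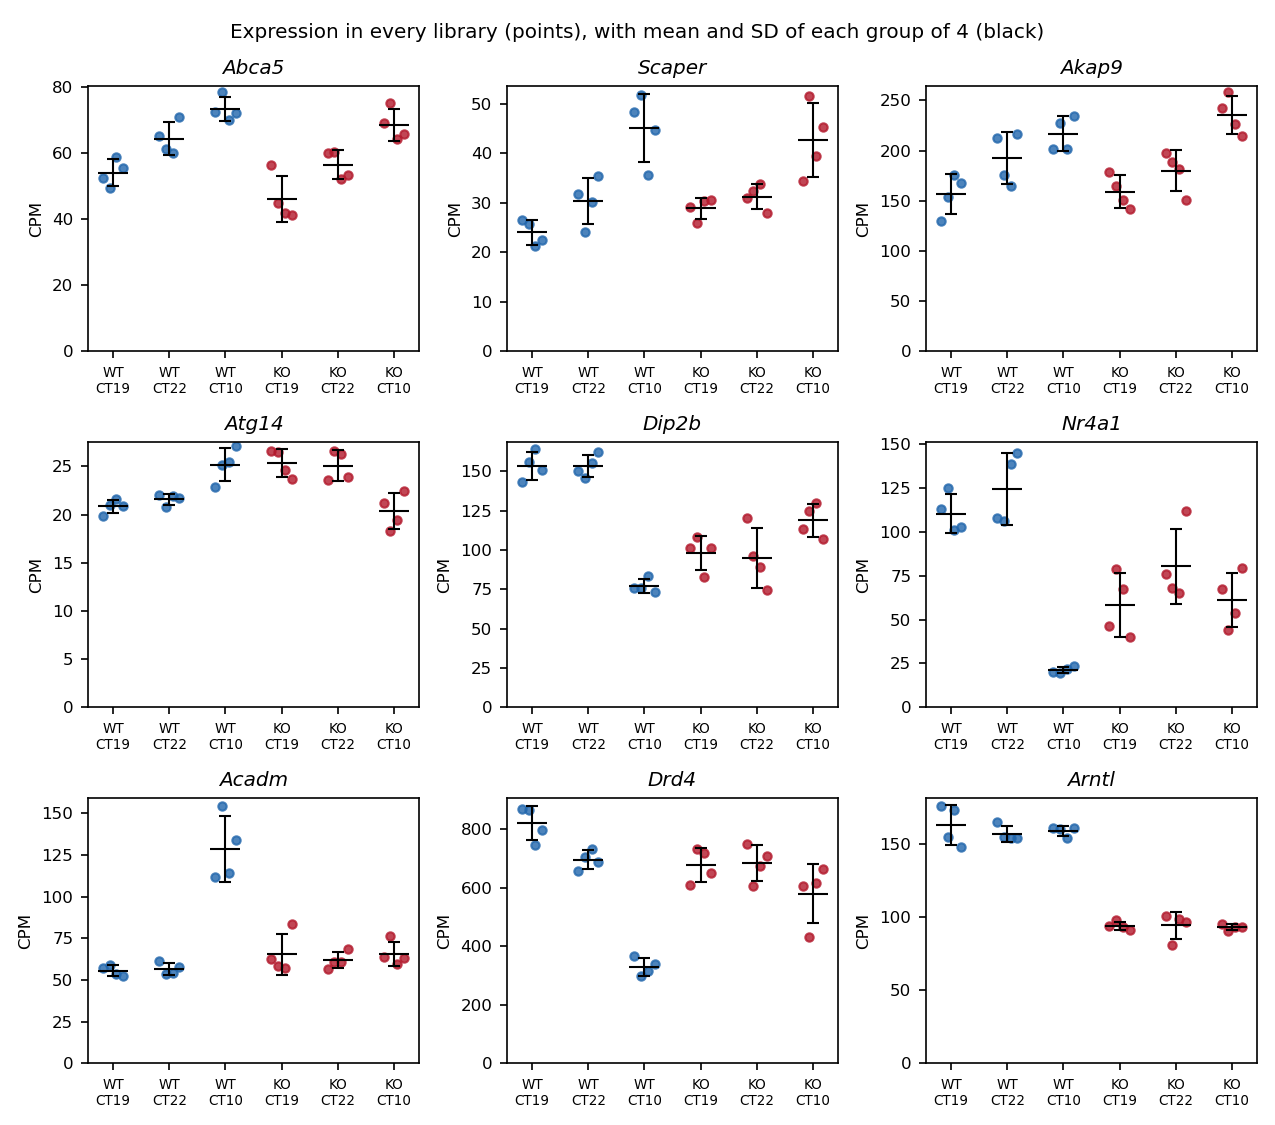
CPM of 9 genes in every library, with groups on the horizontal axis (blue WT, red KO, 4 libraries each), CPM on the vertical axis and the mean and SD in black. The means of Abca5, Scaper and Akap9 are higher at CT10 in both genotypes, that of Atg14 is lower in KO and higher in WT, Dip2b, Nr4a1, Acadm and Drd4 separate CT10 from night in WT and not in KO, and the CT10 and night values of Arntl overlap in both.

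Other genes with the smallest KO p values were higher at CT10 in KO without a change called in WT by edgeR as fitted here. Chd9, a chromatin remodeller, was at 245, 270, 267 and 243 CPM in KO at CT10 against 136 to 233 CPM at night. It changed by 0.42 in KO (SE 0.09, edgeR adjusted p = 0.0927) and by −0.02 in WT (SE 0.09), with a genotype difference of 0.43 (SE 0.13, adjusted p = 0.0419, or 0.518 with both covariates). The Chd9 call was lost in 15 of 24 fits that left out 1 library. Smarca2, an ATPase of the SWI/SNF remodelling complex, had 0.24 in KO (SE 0.06) and −0.14 in WT (SE 0.06), a difference of 0.38 (SE 0.08, adjusted p = 0.00447, or 0.22 with both covariates). Phip (0.36, SE 0.08), Pgap1 (0.40, SE 0.09), the ciliary transcription factor gene Rfx3 (0.34, SE 0.08) and Trps1 (0.35, SE 0.08) had KO values of similar size, and their genotype differences were not called. A block by animal number called Phip and Rfx3 higher at CT10 in both genotypes. In that fit Phip stood at 0.39 in KO and 0.20 in WT (edgeR adjusted p = 0.0272 and 0.0427). Rfx3 stood at 0.37 and 0.26 (adjusted p = 0.0376 and 0.0135). KO CT10 and KO night did not overlap for Phip, Pgap1, Rfx3, Trps1, Smarca2 or Chd9, and DESeq2 called all 6 in KO with adjusted p from 0.0105 to 0.0482. The called share in this contrast was 0%. The share of all tested genes whose KO groups do not overlap is not given here. The absence of overlap, for these and the other genes named in KO, therefore only describes genes picked for a small p.

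Usp29 and Atg14 had values of opposite sign in the genotypes. Usp29, which encodes a deubiquitinating enzyme, was at 24.8, 24.3, 30.1 and 30 CPM in KO at CT10 and 18.4 to 24.4 CPM at night (0.41, SE 0.09, edgeR adjusted p = 0.0927), groups that overlapped at 1 library. In WT it fell from 24.2 ± 1.82 CPM at night (SD, n = 8) to 16.2 ± 1.48 at CT10 (SD, n = 4), by 0.58 on the log2 scale (SE 0.09, adjusted p = 4.52e-05). The difference was 0.99 (SE 0.13, adjusted p = 3e-05), or 0.82 with both covariates (adjusted p = 0.0223). Atg14, a subunit of the lipid kinase complex that starts autophagy, was at 21.2, 18.3, 19.4 and 22.5 CPM in KO at CT10 against 23.6 to 26.6 CPM at night, with no overlap. Its KO change was −0.31 (SE 0.06, edgeR adjusted p = 0.0927) and its WT change 0.24 (SE 0.06, adjusted p = 0.0057), a difference of −0.55 (SE 0.09, adjusted p = 0.000344). With both covariates the difference was −0.53 (adjusted p = 0.0609).

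Usp2, the gene of a deubiquitinase known as a clock output, was at 286, 269, 262 and 278 CPM in KO at CT10 and 300 to 390 CPM at night. All 4 CT10 libraries were below all 8 night libraries. The change was −0.35 in KO (SE 0.08, edgeR adjusted p = 0.119) and 0.05 in WT (SE 0.08), with a difference of −0.40 (SE 0.11, adjusted p = 0.0401, or 0.309 with both covariates). That call was lost in 14 of 24 fits that left out 1 library. Coasy, the enzyme of the last steps of coenzyme A synthesis, had −0.33 in KO (SE 0.08) and −0.11 in WT (SE 0.08), with 14.8 to 17 CPM at CT10 against 17.8 to 23.4 CPM at night in KO. In KO, DESeq2 called Usp29, Atg14, Usp2 and Coasy, with adjusted p of 0.0105, 0.0033, 0.0242 and 0.0105.

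Of 25 core clock genes, 0 were called between CT10 and night in KO, beside 0% of all tested genes. At an unadjusted p under 0.05 there were 4, beside 11.3% of all tested genes. In WT 10 were called, 3 higher and 7 lower at CT10, beside 22.9% of all genes. With the inner retina level alone as a covariate 7 were called in WT, and with both covariates 0. The median KO change of the list was −0.06, against −0.01 over all tested genes. The 4 were Clock (0.23, SE 0.08), the ROR genes Rora (0.24, SE 0.09) and Rorb (0.22, SE 0.10), and the REV-ERB gene Nr1d1 (−0.18, SE 0.09), whose exons overlap those of Thra on the other strand. None of these 4 was called by DESeq2.

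Of the activators Arntl, Clock and Npas2, Arntl had the narrowest interval. It stood at 95.6, 90.5, 93.1 and 93.4 CPM in KO at CT10 and 81 to 101 CPM at night (median 95.3). Its KO change was −0.02 with a 95% interval of −0.13 to 0.09, and its WT change −0.01 (SE 0.05). Clock was at 161 to 188 CPM at CT10 and 125 to 165 CPM at night in KO, groups that overlapped. Npas2, the partner that can stand in for CLOCK, was at 0.536 to 0.79 CPM at CT10 and 0.337 to 0.704 CPM at night in KO (0.39, 95% interval −0.33 to 1.11).

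Among repressors, Cry1 changed by 0.04 in KO (95% interval −0.09 to 0.16) and Cry2 by −0.07 (−0.22 to 0.07). Cry2 fell in WT by 0.36 (SE 0.07, edgeR adjusted p = 0.000551), and the difference between the genotypes was 0.29 (SE 0.10, adjusted p = 0.0906). Per3 stood at 361, 335, 331 and 291 CPM at CT10 against 275 to 473 CPM at night in KO, a change of −0.06 (−0.36 to 0.24). Ciart, with its 3 E-boxes, was at 12.6, 16.5, 14.6 and 14.2 CPM at CT10 and 14.3 to 20.5 CPM at night (−0.23, −0.59 to 0.14). Bhlhe40 fell in WT by 0.82 (SE 0.21, adjusted p = 0.00583) and stood at −0.23 in KO (−0.64 to 0.18), a difference of 0.58 (SE 0.29, adjusted p = 0.239).

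The D-box factors also showed no called change in KO. Dbp, whose exons overlap Sphk2, was at 133, 118, 138 and 148 CPM at CT10 and 125 to 165 CPM at night, a change of −0.16 (−0.38 to 0.06). In WT it rose by 0.32 (SE 0.11, edgeR adjusted p = 0.029), and the difference was −0.48 (SE 0.15, adjusted p = 0.063). Tef changed by 0.02 (−0.10 to 0.14) and Hlf by 0.08 (−0.12 to 0.27) in KO. The opposing factor Nfil3 was at −0.31 in KO (−0.65 to 0.03) and fell by 0.56 in WT (SE 0.16, adjusted p = 0.0127), with a difference of 0.25 (SE 0.23, adjusted p = 0.577).

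Rorb and Per2 had a called genotype difference. Rorb, which encodes a ROR receptor needed for rod formation, was at 760, 900, 859 and 935 CPM in KO at CT10 and 661 to 825 CPM at night. In WT it was at 499 to 766 CPM at CT10 and 878 to 1040 CPM at night, a fall of 0.52 (SE 0.11), and the difference was 0.74 (SE 0.15, edgeR adjusted p = 0.00314). For Per2 the difference was 0.79 (SE 0.21, adjusted p = 0.0287), from 0.04 in KO and −0.76 in WT, and its call was lost in 7 of 24 fits that left out 1 library. With both marker levels as covariates neither was called (adjusted p = 0.178 for Rorb and 0.319 for Per2).

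**Figure D2:**
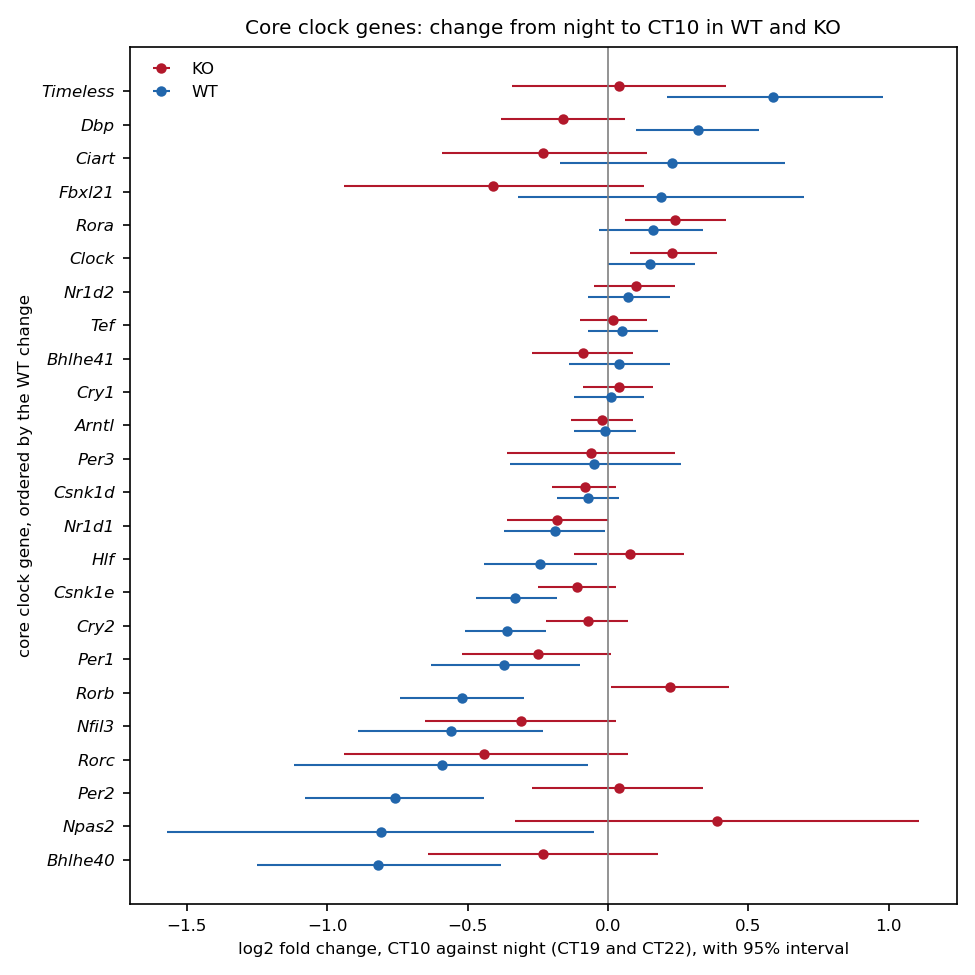
Change from night to CT10 (horizontal axis, log2 fold change with its 95% interval) of 24 core clock genes, ordered by the WT value, with KO in red and WT in blue. KO intervals reach or cross 0 for all genes drawn but Clock, Rora, Rorb and Nr1d1, and Arntl, Cry1 and Tef lie near 0 in both genotypes.

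The genotype difference of the CT10 to night change was called for 818 genes (4.58%), 364 with a higher value in KO (2.04%) and 454 with a lower one (2.54%). Of the 4084 genes called in WT, 756 (18.5%) had a called difference, and they made up 92.4% of the 818. For the other 3328 the difference was not called, which does not show that the genotypes were alike. Over the 4084 genes the median size of the WT change was 0.52, and the median KO change in the WT direction was 0.08, values over genes chosen by their WT change. KO had the same direction as WT for 2845 (69.7%), against 55.2% of the 13787 genes not called in WT. An unadjusted KO p under 0.05 in the WT direction was found for 437 of the 4084 (10.7%) and in the opposite direction for 76 (1.86%), beside 11% in either direction among the genes not called in WT.

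In the 756 genes the median WT change was 0.64 in size and the median KO change in the WT direction −0.04. Of these, 434 were higher at CT10 in WT (median 0.60, KO median −0.05) and 322 lower (median −0.72, KO median 0.03). Placing the mean log2 CPM of the 12 KO libraries on a scale from the WT night level (0) to the WT CT10 level (1) gave a median of 0.39, with 500 genes nearer the WT night level and 256 nearer the WT CT10 level. Of the 12 KO libraries 8 are night libraries, so a gene that changed as in WT would also stand nearer the WT night level. The 756 genes were chosen by the difference, so their medians are a description. The count for the genotype difference of the CT10 to night change moved with the marker levels of other cells. It was 539 with the inner retina level as a covariate, 538 with the lens level and 54 with both, of which 50 were among the 818. It was 466 without KO CT10 replicate 2, 494 without KO CT10 replicate 4, 518 without WT CT10 replicate 2 and 536 without WT CT10 replicate 5.

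**Figure D3:**
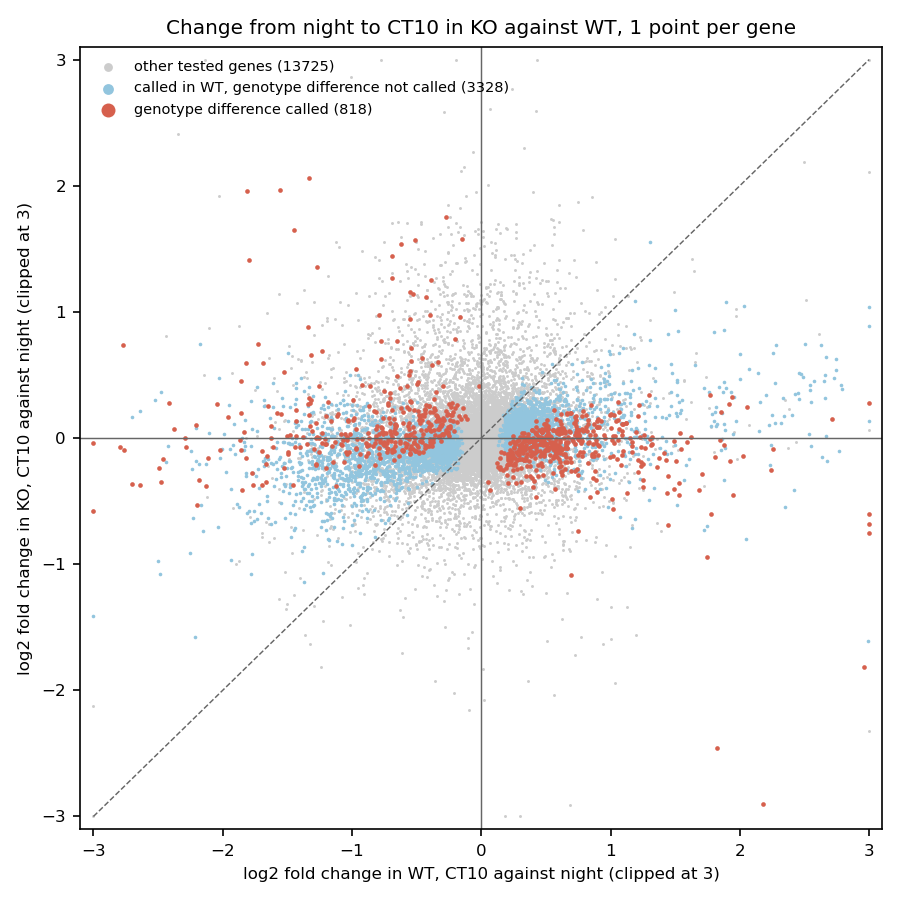
Each point is 1 of 17871 genes, with its log2 fold change from night to CT10 in WT on the horizontal axis and in KO on the vertical axis (values beyond 3 drawn at 3), the dashed line marking equal change. Genes with a called genotype difference (red, 818) spread along the horizontal axis close to 0 in KO, and few points called in WT follow the dashed line.

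Dip2b had the smallest p of the genotype difference (ENSMUSG00000023026, chromosome 15, 100038664 to 100219473, plus strand). In KO it was at 113, 125, 130 and 107 CPM at CT10 and 74.7 to 120 CPM at night (median 98.4). In WT it was at 73.2 to 83.7 CPM at CT10 and 143 to 164 CPM at night, so the WT groups were far apart and the KO groups overlapped. The WT change was −0.996 (SE 0.09) and the KO change 0.30 (SE 0.09), a difference of 1.30 (SE 0.13, edgeR adjusted p = 4.62e-07), and 1.26 with both covariates (adjusted p = 0.000904). E2f3, a cell cycle transcription factor gene, fell in WT by 1.03 (SE 0.10) and stood at 0.13 in KO (SE 0.09), a difference of 1.17 (SE 0.13, adjusted p = 5.19e-06).

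Genes that rose at CT10 in WT and not in KO included Acadm, Pdzph1, Hdac9 and Pdcd4. Acadm, the medium-chain acyl-CoA dehydrogenase of fatty acid oxidation, was at 112, 154, 114 and 134 CPM in WT at CT10 and 52.3 to 61.6 CPM at night. In KO it was at 63.8, 76.3, 59.4 and 63.2 CPM at CT10 and 56.8 to 83.7 CPM at night, a change of 0.05 (95% interval −0.15 to 0.25). The difference was −1.15 (SE 0.14, edgeR adjusted p = 1.48e-05), or −0.72 with both covariates (adjusted p = 0.0305). Pdzph1 rose in WT from 203 to 222 CPM at night to 455 to 676 CPM at CT10 (1.41, SE 0.12), while KO libraries spanned 217 to 283 CPM at CT10 and 192 to 382 CPM at night (−0.12, SE 0.13). The histone deacetylase gene Hdac9 rose by 1.24 in WT (SE 0.12) against −0.07 in KO (SE 0.12), and the translation inhibitor gene Pdcd4 by 0.65 (SE 0.07) against −0.12 (SE 0.07).

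Genes that fell at CT10 in WT included Nr4a1, Drd4, Dnajb2 and Zdhhc5. Nr4a1, a nuclear receptor gene switched on within minutes of stimulation, was at 19.9, 19.6, 21.6 and 23.8 CPM in WT at CT10 and 101 to 145 CPM at night, a change of −2.46 (SE 0.23). In KO it was at 67.5, 44.2, 53.7 and 79.2 CPM at CT10 and 40.2 to 112 CPM at night. Every KO CT10 library was between the WT CT10 and WT night ranges. The KO change was −0.16 (95% interval −0.58 to 0.25) and the difference 2.30 (SE 0.29, edgeR adjusted p = 3.87e-05), or 2.18 with both covariates (adjusted p = 0.0174).

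Drd4 was at 606, 433, 617 and 665 CPM in KO at CT10 and 607 to 751 CPM at night, and at 297 to 366 and 658 to 869 CPM in WT. Its KO change was −0.23 (SE 0.09, edgeR adjusted p = 0.329) and its WT change −1.20 (SE 0.10), a difference of 0.97 (SE 0.13, adjusted p = 3.87e-05). The co-chaperone gene Dnajb2 fell by 0.84 in WT (SE 0.07) and stood at −0.07 in KO (SE 0.07). The palmitoyltransferase gene Zdhhc5, whose exons overlap Med19 on the other strand, fell by 0.99 in WT (SE 0.11) and stood at 0.14 in KO (SE 0.11). With both covariates the difference was still called for Dip2b, E2f3, Pdzph1, Acadm, Pdcd4, Usp29, Dnajb2, Nr4a1, Hdac9, Zdhhc5 and Drd4.

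In the dopamine, melatonin and cAMP list, 16 genes were tested and 0 were called in KO. An unadjusted KO p under 0.05 was found for 2, beside 11.3% of all tested genes. In WT 9 fell and 1 rose, beside 11.3% lower and 11.6% higher over all genes. The inner retina level alone as a covariate left 4 called in WT, and both covariates left 2. The difference was called for 5, beside 4.58% of all genes, and with both covariates for Drd4 alone. The KO median was −0.05 and the WT median −0.33. The adenylyl cyclase genes went apart in WT, with Adcy8 at −2.02 (SE 0.33) and Adcy1 at 0.89 (SE 0.11), and stood at −0.09 (SE 0.28) and 0.09 (SE 0.11) in KO. Drd1 and Drd2, dopamine receptors of inner retinal neurons, fell by 1.38 (SE 0.31) and 1.35 (SE 0.25) in WT and stood at 0.01 (SE 0.28) and −0.05 (SE 0.23) in KO.

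Of 16 tested immediate early genes, which respond to neuronal activity and cAMP, 7 fell and 0 rose in WT, beside 11.3% and 11.6% of all genes, while 0 were called in KO. With the inner retina level alone as a covariate 6 were called in WT, and with both covariates 4. One KO value had an unadjusted p under 0.05, Jund (−0.27, SE 0.09), beside 11.3% of all tested genes. The difference was called for 6, beside 4.58% of all genes, all higher in KO: Nr4a1, Nr4a3 (2.34, SE 0.54), Fos (1.76, SE 0.41), Ier2 (1.04, SE 0.22), Dusp1 (0.96, SE 0.24) and Junb (0.94, SE 0.21). With both covariates Nr4a1 alone of these 6 was called. Nr4a3 had a low level, with an average log2 CPM under 1. Fos varied between KO libraries, at 58.8, 18.3, 24.7 and 47.5 CPM at CT10 and 16.7 to 64.3 CPM at night, so its KO value (−0.09, SE 0.29) is wide.

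In the unfolded protein response list, 22 genes of protein folding and stress in the endoplasmic reticulum, 0 were called in KO and 6 had an unadjusted p under 0.05, all higher at CT10, beside 11.3% of all tested genes in either direction. In WT 8 fell and 1 rose, beside 11.3% and 11.6% of all genes. With the inner retina level alone as a covariate 8 were called in WT, and with both covariates 0. The chaperone gene Hspa5 was at 247, 229, 257 and 301 CPM in KO at CT10 and 160 to 284 CPM at night (0.41, SE 0.14, edgeR adjusted p = 0.25), against −0.30 in WT (SE 0.14). The difference was called for 5 genes, beside 4.58% of all genes, all higher in KO: Xbp1 (0.82, SE 0.18), Sdf2l1 (0.82, SE 0.21), Hspa5 (0.71, SE 0.20), Manf (0.62, SE 0.16) and Ddit3 (0.51, SE 0.12). None of them was called with both covariates. Manf and Ddit3 share exons with genes on the opposite strand.

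Among 21 rod phototransduction genes 5 rose and 2 fell in WT, beside 11.6% and 11.3% of all genes. The inner retina level alone as a covariate left 1 called in WT, and both covariates left 0. In KO 0 were called, with KO values from −0.14 to 0.40. The calcium sensor gene Rcvrn, which fell by 0.82 in WT (SE 0.12), stood at 0.00 in KO (SE 0.12), and its difference was 0.81 (SE 0.17, edgeR adjusted p = 0.00382, or 0.165 with both covariates). Gucy2f, a guanylate cyclase gene, had the highest KO value of the list (0.40, SE 0.11, adjusted p = 0.179). Of 13 cone phototransduction genes 0 were called in KO, and the 2 with an unadjusted p under 0.05 were Gnat2 (−0.23, SE 0.10) and Pde6h (−0.55, SE 0.26). Of 24 genes of outer segment structure and cilium 6 had an unadjusted KO p under 0.05, beside 11.3% of all tested genes, all higher, among them Cep290 (0.37, SE 0.10), Abca4 (0.26, SE 0.08), Rp1 (0.25, SE 0.09) and Prom1 (0.21, SE 0.08).

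Of 33 tested genes of phosphatidylserine exposure and phagocytosis, the process whose daily rhythm the study addresses, 0 were called in KO and 4 had an unadjusted p under 0.05, a share near the 11.3% of all tested genes. These were the flippase genes Atp8a1 (0.26, SE 0.08) and Atp8a2 (0.23, SE 0.09), and the scramblase family genes Plscr3 (−0.41, SE 0.15) and Ano4 (−0.84, SE 0.36). In WT 1 rose and 6 fell, beside 11.6% and 11.3% of all genes. The inner retina level alone as a covariate left 6 called in WT, and both covariates left 0. The difference was called for Atp8a1 alone (0.45, SE 0.12, edgeR adjusted p = 0.0262, or 0.36 with both covariates), beside 4.58% of all genes.

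Of 25 tested fatty acid oxidation genes 0 were called in KO, and the difference was called for Acadm and Cpt1a, the entry enzyme of mitochondrial fatty acid import (−0.76, SE 0.15, edgeR adjusted p = 0.00349, or 0.459 with both covariates). Cpt1a was at 228 to 299 CPM at CT10 and 212 to 331 CPM at night in KO. Glycolysis and lactate genes (27 tested) held 0 with an unadjusted KO p under 0.05, beside 11.3% of all tested genes. In WT 1 of them rose and 8 fell, beside 11.6% and 11.3% of all genes. That WT count of 9 became 2 with the inner retina level alone as a covariate and 1 with both covariates. Cholesterol synthesis (20 genes) and fatty acid synthesis (22 genes) likewise held 0 with an unadjusted KO p under 0.05. In WT 4 rose and 3 fell in the former, and 3 rose and 1 fell in the latter, beside 11.6% and 11.3% of all genes. The inner retina level alone as a covariate left 3 called in WT in each of these 2 lists. Both covariates left 1 in cholesterol synthesis and 0 in fatty acid synthesis. In the ribbon synapse list (22 genes) the difference was called for Rims2 (−0.76, SE 0.12), Stx3 (0.45, SE 0.12) and Snap25 (0.42, SE 0.12). Rims2 rose in WT by 0.90 (SE 0.08) and stood at 0.14 in KO (SE 0.08). None of the 3 was called with both covariates. Over all tested genes the difference was called for 4.58%, a share to set beside the counts of these lists.

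Of the remaining lists, autophagy and lysosome (25 genes) held 6 with an unadjusted KO p under 0.05, 2 higher and 4 lower, with Atg14 first. Insulin, AMPK and FOXO signalling (22 genes) held 3, Usp2 and the receptor genes Igf1r (0.30, SE 0.08) and Insr (0.21, SE 0.08). Heat shock chaperones (24 genes) held 1, photoreceptor transcription factors (16 genes) 2, and cold-inducible RNA-binding, glucocorticoid-responsive and clock-linked cell cycle genes 0. The share with an unadjusted KO p under 0.05 over all tested genes, to set beside each of these counts, was 11.3%.

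The KO values also differed by kind of gene. TEC loci, unspliced transcripts that the annotation marks as still to be experimentally tested, had a median KO change of 0.47 over 818 tested loci, against 0.04 in WT. At an unadjusted p under 0.05, 285 of them were higher and 6 lower in KO, beside 1260 and 767 over all tested genes. Sense intronic RNAs (99 tested) had a KO median of 0.43 against −0.03 in WT, and protein-coding genes (13633) −0.03 against −0.02. None of these loci was called by edgeR, and 25 of the 53 genes that DESeq2 called in KO were of these types.

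By library, the mean log2 CPM over the TEC loci was 0.39, 0.21, 0.17 and −0.27 at CT10 in KO and from −0.64 to −0.22 at night. Replicate 5 of CT10 lay within the night range and the other 3 above it. As a share of counts the TEC loci took 0.308%, 0.288%, 0.289% and 0.237% at CT10 and 0.217% to 0.333% at night in KO, ranges that overlapped, with KO CT22 replicate 4 highest. In WT the 4 CT10 libraries spanned −0.37 to −0.09 and the night libraries −0.92 to 0.26. Leaving out each KO library in turn kept the KO median of the TEC loci between 0.39 and 0.58. Malat1, a long RNA retained in the nucleus, had the same order over the 4 CT10 libraries. It was at 5200, 5170, 3950 and 3540 CPM in KO at CT10 and 2360 to 3130 CPM at night, without overlap, a change of 0.71 (SE 0.17, edgeR adjusted p = 0.126). In WT it was at 3200 to 3810 CPM at CT10 and 1470 to 4230 CPM at night (0.30, SE 0.17). DESeq2 called Malat1 in KO (adjusted p = 0.0285). Malat1 shares exons with Gm37376 on the opposite strand.

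KO medians also differed by gene length on the chromosome. Protein-coding genes under 10 kb had a KO median of −0.09, those of 10 to 30 kb −0.05, those of 30 to 100 kb 0.02 and those over 100 kb 0.06. At an unadjusted p under 0.05, 41 of the shortest class were higher and 292 lower at CT10, and 298 of the longest were higher and 33 lower. WT medians were −0.13, −0.01, 0.06 and −0.02 in the same order. Several genes named above with higher KO values are over 100 kb, such as Scaper, Akap9, Chd9 and Usp29. The part that gene length, unspliced RNA or RNA quality had in the KO values was not tested.

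Mitochondrially encoded genes, 11 tested, had KO values of 0.29 to 0.78 (median 0.40), and 8 had an unadjusted p under 0.05, beside 11.3% of all tested genes. The WT median was 0.27 with 0 called, and the genotype difference was called for 0. Examples were mt-Nd5 (0.55 in KO, SE 0.18, and 0.26 in WT, SE 0.18) and mt-Co1 (0.46 in KO, SE 0.16, and 0.23 in WT, SE 0.16). Their share of counts was 1.41%, 2.04%, 1.29% and 1.76% at CT10 and 1.07% to 1.69% at night in KO, ranges that overlapped.

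**Figure D4:**
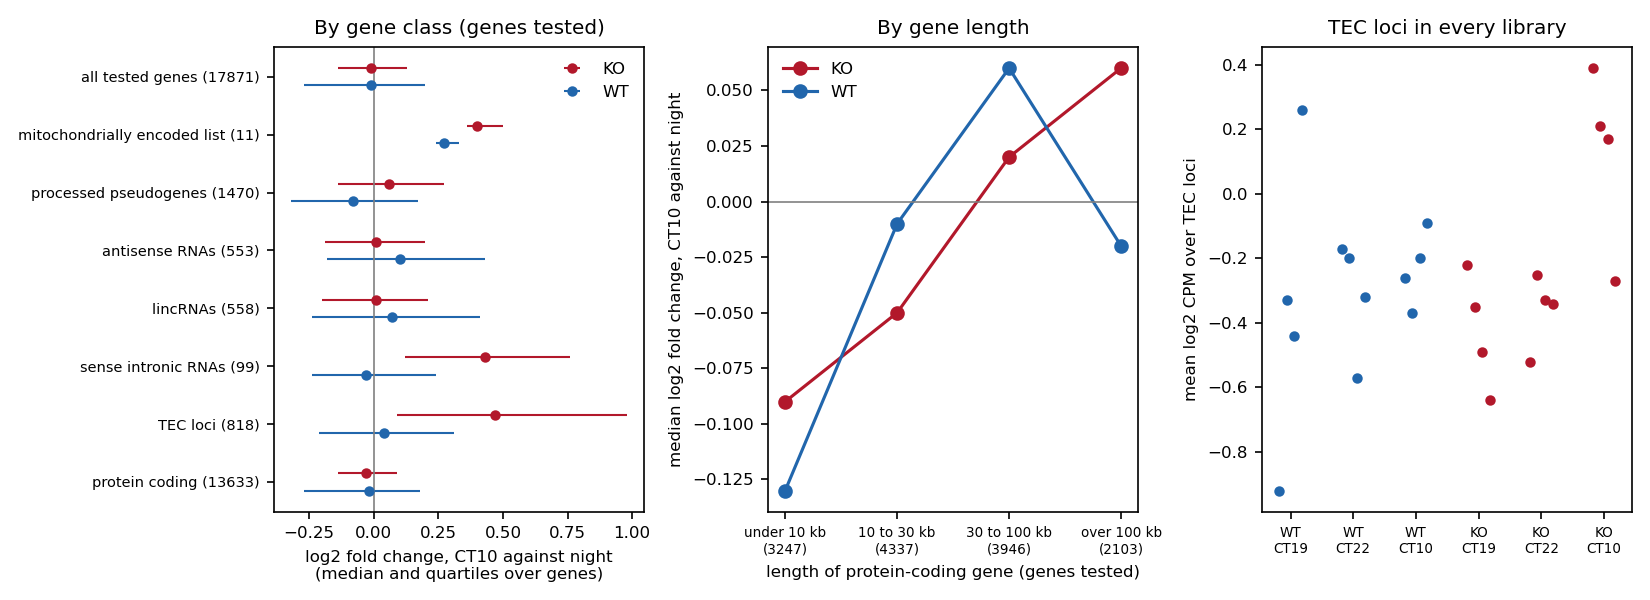
Left, median and quartiles over genes of the log2 fold change from night to CT10 by gene class, and centre, the median by length of protein-coding gene, in KO (red) and WT (blue). Right, the mean log2 CPM over TEC loci in each library, where 3 of 4 KO CT10 libraries stand above all KO night libraries.

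Markers of other cell types were called in WT and not in KO. In bulk libraries, fewer cells of a type and less RNA per cell cannot be told apart. Bipolar cell markers (14) stood at a mean log2 CPM of 4.79 to 5.30 in the KO CT10 libraries and 4.29 to 5.33 at night, ranges that overlapped, and 0 were called or had an unadjusted p under 0.05. In WT they stood at 3.14 to 4.24 at CT10 and 3.86 to 5.15 at night, and 11 of 14 fell, beside 11.3% of all genes. Müller glia markers (14) had a KO median of −0.10 and a WT median of −0.63, with 9 called lower in WT and 0 called in KO. Lens markers (18) stood at 2.89 to 6.47 at CT10 and 3.27 to 6.25 at night in KO, against 6.54 to 8.46 and 0.77 to 7.06 in WT, where 16 rose, beside 11.6% of all genes. The WT values and the genotype differences above move with these marker levels, and their part was not tested beyond the fits with the levels as covariates.

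Ganglion cell markers had the lowest KO median of the marker lists. In KO they stood at a mean log2 CPM of 0.13 to 0.90 at CT10, 1.25 to 1.80 at CT19 and 0.87 to 1.16 at CT22. Their median KO change was −0.70 over 9 tested genes. None was called in KO, and 5 of 9 had an unadjusted p under 0.05, all lower, beside 11.3% of all tested genes in either direction. The WT median of the ganglion cell markers was −0.49 with 0 called, and the genotype difference was called for 0. Amacrine markers (12) had a KO median of −0.36, with 2 lower at an unadjusted p under 0.05. Their WT median was −0.96, with 8 called lower, beside 11.3% of all genes. Pigment epithelium, endothelial, microglia and astrocyte markers had 0 at that unadjusted p in KO. With the inner retina level, the lens level or both as covariates, KO CT10 against night called 0 genes, as without them.

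**Figure D5:**
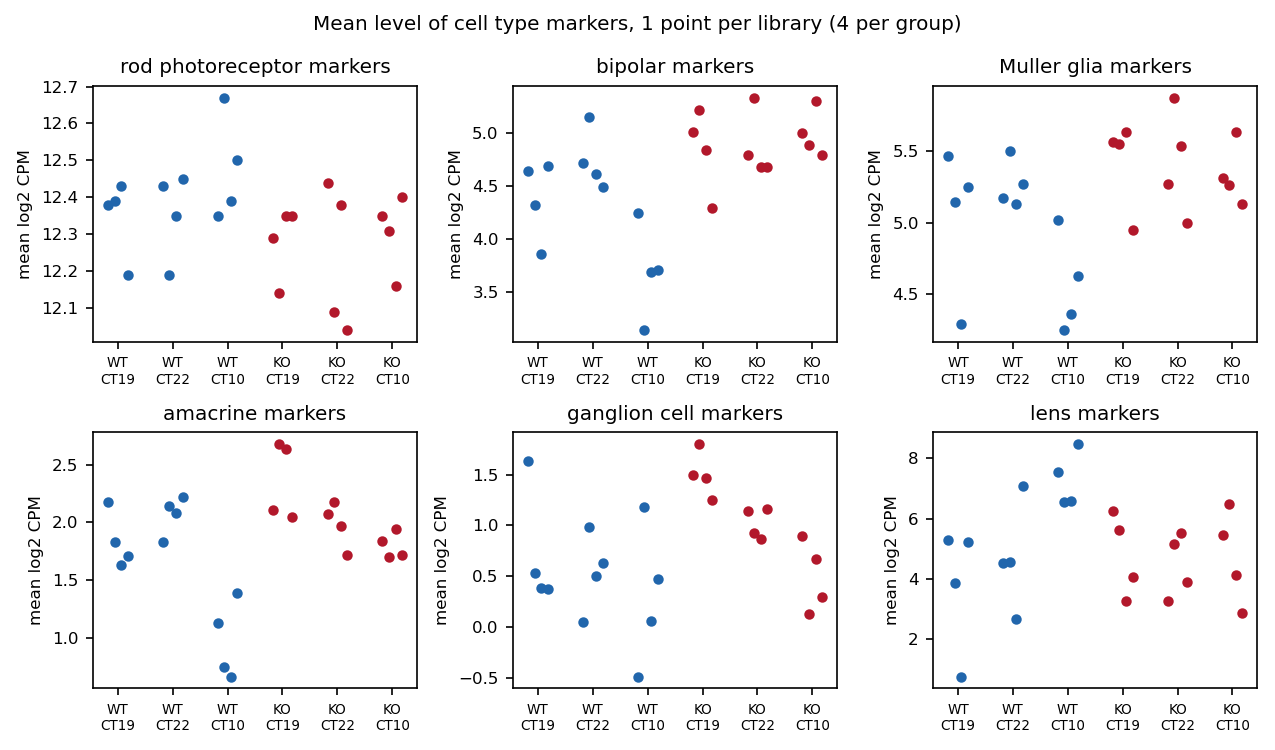
Mean log2 CPM over the tested markers of 6 cell types in each library, by group (blue WT, red KO, 4 libraries each). Rod markers overlap across all groups, bipolar and amacrine means are lowest at CT10 in WT, the lens mean is highest there, and within KO the ganglion cell mean is lowest at CT10.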

How the data were processed

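The labels describe RNA sequencing of laser captured mouse photoreceptors from 2 genotypes at 4 circadian times, in 8 groups and 32 libraries. The authors deposited raw whole-number read counts per Ensembl gene in a table of the whole series. Trimmomatic 0.32, HISAT2 2.1.0, Cufflinks, HTSeq 0.11 and the build GRCm38.p6 are named in the submitters' processing notes. Which step each served, whether counting used strand, and how multiply mapped reads were handled is not given in the sources used here, so genes whose exons overlap on opposite strands are less certain. The table held 0 columns of other samples.

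Of 54232 genes, 19506 had no count in any library. GENCODE vM21 named 99.7% of the IDs and gave gene types, lengths and positions. The filter of edgeR (filterByExpr, minimum count 10, minimum total 15) kept 17871 genes, and these took 99.9% or more of every library's total. Total counts were 23833604 to 34582742. In R 4.3.3, edgeR 4.0.16 fitted 1 robust quasi-likelihood model to the 32 libraries with TMM scaling and 1 mean per group (24 residual degrees of freedom, common biological coefficient of variation 0.199). Night was the mean of CT19 and CT22. Contrasts were CT10 against night in each genotype, their difference, and the pairs of KO times, with Benjamini-Hochberg adjustment over all tested genes at 0.05. CPM used the TMM scaling, and log2 CPM a prior count of 1. The code was checked on simulated data. In 36 pairs of libraries of the same group, counts differed well beyond sampling noise, with a chi-square of 13.3 to 96 per degree of freedom, so each library counted as 1 replicate.

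By rule, named genes were Per1, Per2, the clock list, the 12 smallest KO p values in each direction and the 12 smallest p values of the genotype difference. Up to 4 genes per list that were called in KO were to be added. They had an average log2 CPM of at least 1, a settled symbol and, when picked by p, no place in a marker list of other cells. The parts of the rule for genes called in KO and for genes called in both genotypes found none. Genes named outside this rule were chosen after their values were seen, among them the list members with a called genotype difference. The members and the gene lists were chosen with earlier results of these data known. Alternatives were DESeq2 1.42.0, its size factors in edgeR, no filter, a block by animal number, sets of 8 library numbers, marker level covariates, only the KO libraries, 1 night group, and leaving out each library. The results of some named genes are not reported here, and counts over gene lists include every tested member.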

Additional observations from a re-analysis of the deposited data

Results flagged for a closer look

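Single libraries stood apart from the other 3 of their group in 8 of 210 groups of values tested with Dixon's criterion, which by chance flags about 1 in 20. Per2 was at 184 CPM in KO CT10 replicate 3 against 207 to 210 in the others, and E2f3 at 28.1 CPM in KO CT10 replicate 2 against 35.3 to 35.7. Pdcd4 was at 56.3 CPM in WT CT10 replicate 1 against 47.8 to 49.2, and at 34.4 CPM in WT CT19 replicate 1 against 31.2 to 31.7. Among mean marker levels (log2 CPM), cone markers were at 7.62 in KO CT22 replicate 3 against 7.43 to 7.45, and Müller glia markers at 4.95 in KO CT19 replicate 5 against 5.55 to 5.63. Ganglion cell markers were at 1.63 in WT CT19 replicate 1 against 0.375 to 0.535, and corneal epithelium markers at 1.77 in KO CT10 replicate 5 against 2.60 to 2.67.

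The change from night to CT10 differed between the genotypes, by the interaction in edgeR's fit, for the 41 named genes listed here. They do not include Nr4a3 (2.34), Adcy8 (1.93), Chd9 and Smarca2, named above, whose difference was also called. Values are the KO log2 fold change minus the WT one. A higher value in KO by 1 or more was found for Nr4a1 (2.30), Fos (1.76), Drd1 (1.39), Dip2b (1.30), Drd2 (1.30), E2f3 (1.17), Zdhhc5 (1.13) and Ier2 (1.04). Values from 0.7 to 1 were found for Usp29 (0.99), Drd4 (0.97), Dusp1 (0.96), Junb (0.94), Sdf2l1 (0.82), Xbp1 (0.82), Rcvrn (0.81), Per2 (0.79), Dnajb2 (0.77), Rorb (0.74) and Hspa5 (0.71). Smaller higher values were found for Manf (0.62), Ddit3 (0.51), Gabarap (0.49), Hsp90aa1 (0.49), Stx3 (0.45), Atp8a1 (0.45), Pmvk (0.44), Srebf2 (0.43), Snap25 (0.42) and Dnajb5 (0.38). A lower value in KO was found for Pdzph1 (−1.53), Hdac9 (−1.31), Acadm (−1.15), Lcn2 (−0.98), Adcy1 (−0.81), Pdcd4 (−0.78), Cpt1a (−0.76), Rims2 (−0.76), Me1 (−0.60), Atg14 (−0.55), Usp2 (−0.40) and Lss (−0.29). With both marker covariates 12 of them were called, namely Dip2b, E2f3, Pdzph1, Acadm, Pdcd4, Usp29, Dnajb2, Nr4a1, Hdac9, Zdhhc5, Drd4 and Lcn2.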

How the results depend on the processing

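The count of 0 genes called between CT10 and night in KO became 1 with no filter on low counts, 5 with only the 12 KO libraries in the fit and 53 with DESeq2, and 0 to 2 when 1 library was left out. It was 0 under each other alternative without the block. KO CT10 against CT19 called 3 genes with no filter, 5 with the inner retina covariate, 3 with both covariates and 230 with DESeq2, and 0 to 23 with 1 library left out. KO CT10 against CT22 gave 1 and KO CT22 against CT19 gave 2 with DESeq2, and genes called in both genotypes gave 8. In WT the count was 2528 with the inner retina covariate and 518 with both, of which 446 were among the 4084, and 2773 to 4179 with 1 library left out. The genotype difference of the CT10 to night change gave 498 with no filter, 539 with the inner retina covariate, 538 with the lens covariate, 54 with both and 1338 with DESeq2, and 466 to 955 with 1 library left out. The cause of these shifts was not tested.

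A replicate block by animal number called 21 genes in KO (20 higher, and Atg14 lower), 6 for KO CT10 against CT19 and 9 in both genotypes. Same-numbered deviations correlated at −0.18 to 0.21 in 10 KO pairs and −0.20 to 0.19 in 8 WT pairs. Of these, 3 KO and 2 WT pairs were over 0.1. The numbers were therefore not treated as pairs in the main fit. So few correlations cannot exclude that same-numbered libraries share more than a number.

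Leaving out 1 library turned the sign of small KO values that were never called: Cry1 spanned −0.01 to 0.07, Per3 −0.11 to 0.01, Timeless −0.10 to 0.13, Arntl −0.06 to 0.00 and Per2 −0.02 to 0.10. Timeless was −0.01 without KO CT19 replicate 2 and 0.00 without KO CT22 replicate 3. Of 43 named genotype differences, 12 kept their call with both covariates, 25 with either one, 31 with no filter and 43 with DESeq2. In fits that left out 1 library, 21 of the 43 lost the call at least once (180 values), among them Gabarap, Drd1 and Dnajb5 in 19 of 24 fits each, Hsp90aa1 and Lss in 18, Lcn2 in 16, Snap25 in 10 and Hspa5 in 9. In WT, Dbp lost its call in 4 of 12 such fits, Ano4 in 7, Akap9 and Cep290 in 2, and Dync2h1 and Kcnab3 in 1. With 4 libraries a group, differences inside the printed intervals were not detectable, and lens and inner retina levels differ between WT CT10 and WT night, so their part and that of the time of day cannot be fully told apart there.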
